A study of Rattus norvegicus with 939 samples.

Results

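Cyclophosphamide and ifosfamide are the oxazaphosphorines, a pair of anticancer drugs that carry a nitrogen mustard inside a ring closed by phosphorus, oxygen and nitrogen. Arrays were taken by the compound named in their labels, which gave 12 of the 939 arrays in the series, 6 for each drug. Primary rat hepatocytes were cultured with cyclophosphamide at 1320 uM or ifosfamide at 11000 uM, with 3 arrays at 0.67 d and 3 at 1 d, and poly A RNA was measured on Affymetrix arrays. All cultures, controls included, received the vehicle DMSO. The controls were the vehicle arrays whose description names the drug. There were 8 for cyclophosphamide (4 at each time) and 32 for ifosfamide (16 at each time, in 3 lots of controls whose descriptions carry different lists of compounds). No control array served both drugs. The labels do not say which of the 3 lots goes with which ifosfamide array, nor do they give the strain, sex or age of the animals that gave the cells. Because the doses differ, the drugs' values are set side by side and were not tested against each other.

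The arrays carried the markers of hepatocytes. Over 19 hepatocyte markers the mean log2 value lay between 11.9 and 12.2 on the cyclophosphamide arrays and between 11.6 and 11.9 on the ifosfamide arrays, against 12.0 to 12.3 and 11.8 to 12.5 in their controls. Within a drug the arrays moved together. The change of each treated array against its controls at the same time, taken over all genes, correlated between arrays at r of 0.68 to 0.89 for cyclophosphamide and 0.82 to 0.94 for ifosfamide, where the arrays of a time share controls. All levels below are log2 array signals, and all changes are treated minus control on the log2 scale with the standard error (SE) of the limma fit, adjusted for exposure time.

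Both drugs are inactive until cytochrome P450 enzymes of the liver, chiefly of the CYP2B, CYP3A and CYP2C families, hydroxylate the ring. The product opens to an aldehyde that breaks down to a mustard, which links the strands of DNA to each other, and to acrolein, which binds glutathione and other thiols. Aldehyde dehydrogenases divert the aldehyde to an inactive acid. The drugs differ in where the chloroethyl arms sit. Cyclophosphamide carries both on the nitrogen outside the ring, whereas ifosfamide carries one of them on the ring nitrogen. More of ifosfamide loses an arm as chloroacetaldehyde. Damage to DNA is known to switch on p53, reactive aldehydes switch on NRF2, shortage of amino acids or misfolded protein in the endoplasmic reticulum (ER) switches on ATF4 and CHOP, and denatured protein switches on HSF1.

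A gene was called where its adjusted p (limma, Benjamini-Hochberg over 14218 genes) was 0.01 or less and its change was 1.5-fold or more. Cyclophosphamide gave 1350 called genes (9.5% of those tested), of which 485 rose (3.41%) and 865 fell (6.08%). Ifosfamide gave 3555 (25%), of which 1363 rose (9.59%) and 2192 fell (15.4%). The lists overlapped. The 356 genes that rose with both drugs (2.5% of those tested) made up 73.4% of the cyclophosphamide list and 26.1% of the ifosfamide list. The 760 that fell with both (5.35%) made up 87.9% and 34.7%. The direction of the ifosfamide response depended on the scaling. Genes that fell were 61.7% of its calls as deposited and 30.5% when the median of the tested genes was subtracted from each array, which shifted the median change of all genes by 0.25. The same scaling took the share that fell among the genes called with both drugs from 68.1% to 54.4%. As deposited, the median change over all genes was 0.02 with cyclophosphamide and 0.14 with ifosfamide. List medians below are to be read against those values, and list counts against the shares of all genes that rose and fell.

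Of the 4 genes called in opposite directions, Egr1, an immediate early transcription factor, fell by 0.85 ± 0.20 (SE) with cyclophosphamide and rose by 1.26 ± 0.31 with ifosfamide. Nsmce3, a subunit of the SMC5/6 complex that acts in DNA repair, rose by 0.86 ± 0.17 with cyclophosphamide and fell by 0.91 ± 0.11 with ifosfamide. Ugt2b15, a glucuronosyltransferase, and Spin2a followed Nsmce3, at 0.66 and 0.93 against -0.73 and -0.59.

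Targets of p53 were called mostly higher with cyclophosphamide and in both directions with ifosfamide. Of 32 tested, 12 rose and 1 fell with cyclophosphamide, while 3.41% of all genes rose and 6.08% fell. With ifosfamide 14 rose, 7 fell and 11 were not called, while 9.59% of all genes rose and 15.4% fell. The list's median change was 0.28 and 0.18, against 0.02 and 0.14 over all genes. The 10 that rose with both were Cdkn1a, Mdm2, Sesn2, Phlda3, Plk2, Aen, Sertad1, Gdf15, Gtse1 and Ppm1d. Mdm2, the ubiquitin ligase that holds p53 down, read 11.13, 11.43 and 11.50 at 0.67 d and 11.45, 11.69 and 11.81 at 1 d with cyclophosphamide, against 10.12 to 10.50 (median 10.37) in the 8 controls. With ifosfamide it read 11.40, 11.80 and 11.90, then 11.43, 11.72 and 11.82, against 10.04 to 10.97 (median 10.47) in the 32 controls. For both drugs all 6 treated arrays lay above all controls. Over all genes, 9.25% had this pattern with cyclophosphamide and 9.22% with ifosfamide. The change in Mdm2 was 1.16 ± 0.10 (SE, adjusted p = 7.48e-07) and 1.18 ± 0.10 (adjusted p = 3.41e-13).

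Cdkn1a, the p21 inhibitor of cell cycle kinases, read 10.77, 11.41 and 11.71 at 0.67 d and 11.22, 11.71 and 11.91 at 1 d with cyclophosphamide. Its controls ran from 9.69 to 10.92 with a median of 10.57. The lowest treated array, number 1 at 0.67 d, lay within that range but above the 9.88 of the control with its number and time. The change was 1.03 ± 0.20 (SE, limma adjusted p = 0.000864) in the fit, which did not pair arrays by number. With ifosfamide Cdkn1a read 11.86, 12.06 and 12.10, then 11.51, 12.14 and 12.18, all above controls of 9.36 to 10.86 (median 10.37), a change of 1.78 ± 0.17 (SE, adjusted p = 3.49e-12). Gdf15, a secreted stress cytokine that ATF4 and CHOP also drive, was the gene that rose most with ifosfamide. It read 10.06, 10.22 and 10.71 at 0.67 d and 8.76, 9.20 and 10.23 at 1 d against 5.82 to 7.66 in controls (median 6.46), a 9.69-fold change. With cyclophosphamide it read 7.20, 7.21 and 8.29, then 8.46, 8.55 and 9.01, against 6.10 to 7.38 (median 6.49). At 0.67 d 2 of those 3 arrays overlapped the controls, and the joint change was 1.52 ± 0.29 (SE, adjusted p = 0.000741).

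**Figure D1:**
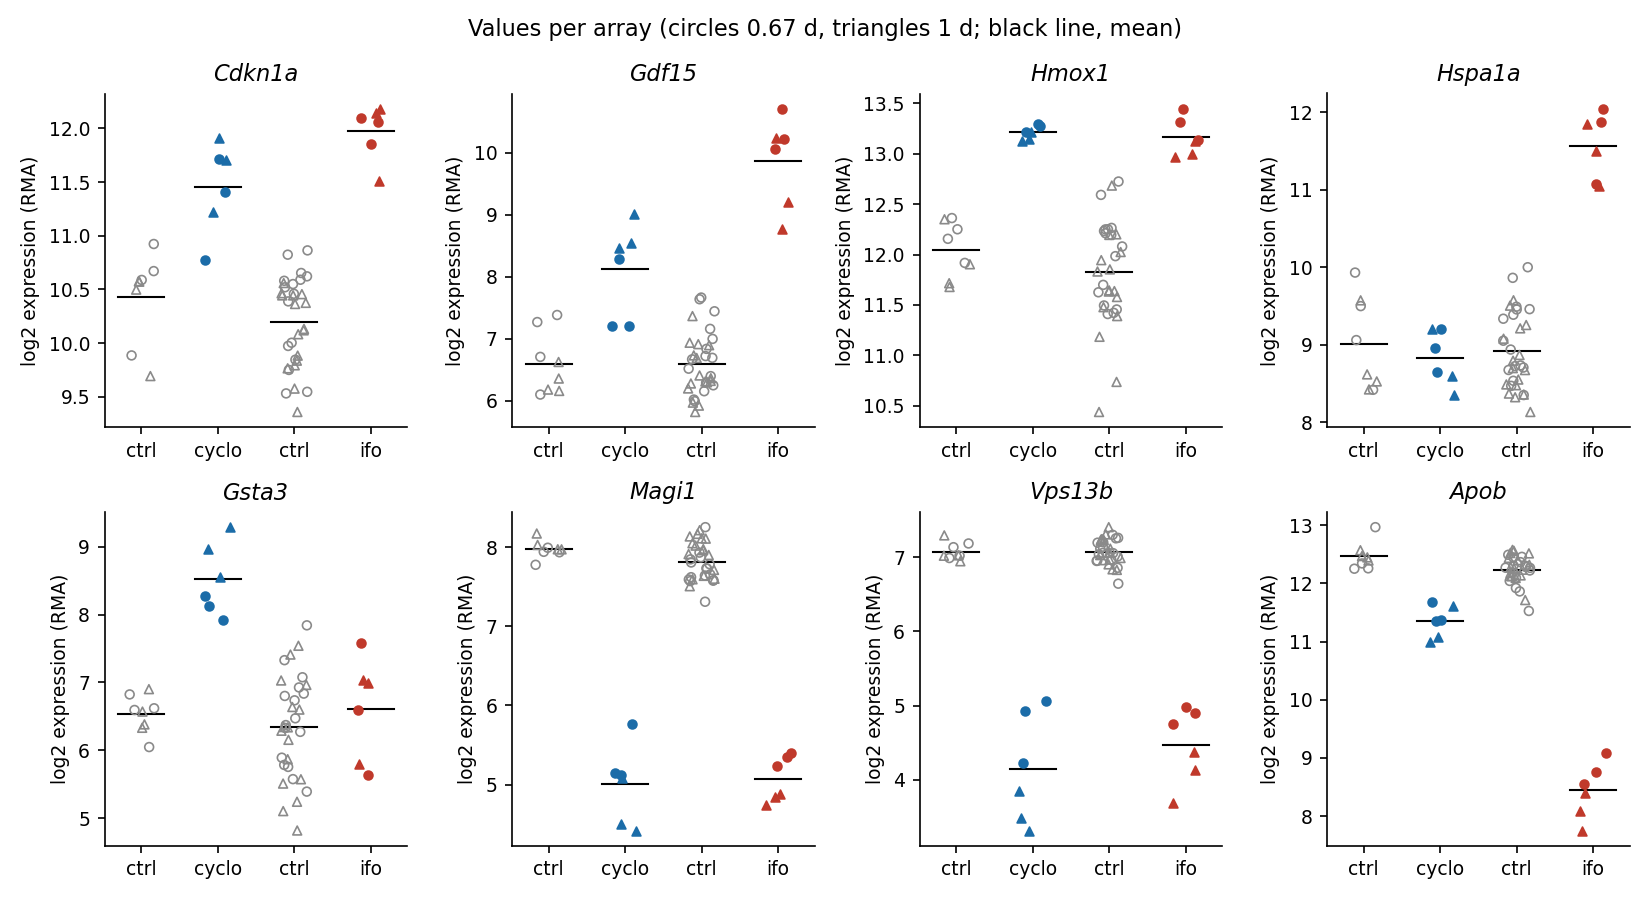
Log2 array signal of 8 genes with 1 point per array, where filled points are treated arrays, open points the controls of the drug to their right, circles 0.67 d, triangles 1 d and lines means. All 6 arrays of each drug lay above all controls for Hmox1 and below all controls for Magi1, Vps13b and Apob, whereas Hspa1a lay above its controls with ifosfamide and, apart from 1 lower array, within them with cyclophosphamide.

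Some p53 targets were called with 1 drug. Bbc3, which encodes the pro-death protein PUMA and was the only called member of 16 BCL2 family genes, rose by 0.80 ± 0.10 with cyclophosphamide, while its change with ifosfamide was 0.18 ± 0.08 (SE, adjusted p = 0.0554). With ifosfamide limma called 0 of the 16, with or without variance moderation, and 5 were higher and 3 lower at an unadjusted p under 0.05. Ccng1 rose by 0.68 ± 0.09 with cyclophosphamide and stood at 0.57 ± 0.08 with ifosfamide, just under the 1.5-fold bound. Gadd45a, Plk3, Tp53inp1 and Ddit4 were called with ifosfamide. The 7 targets that fell with ifosfamide were Fas, a death receptor, Sesn1, Xpc, which recognises damage in nucleotide excision repair, Apaf1, the scaffold of the apoptosome, at -1.86 ± 0.12 (SE), Pml, Foxo3 and Tp53i11. The Foxo3 change of -1.04 turned to 0.25 when all its probe sets were summarised by their median.

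Of 31 genes for repair of links between DNA strands, 2 rose with cyclophosphamide and 5 rose and 1 fell with ifosfamide, where 3.41% and 9.59% of all genes rose. The list's median was 0.13 and 0.27. Dclre1b, the Apollo nuclease, rose by 1.22 ± 0.12 and 2.00 ± 0.15, and Usp1, which removes ubiquitin from FANCD2 and PCNA, rose by 0.95 ± 0.11 and 0.96 ± 0.09. Ercc1, which cuts DNA with ERCC4, Mad2l2 and Ube2t rose with ifosfamide, at 1.34 for Ercc1. Rev3l, the catalytic subunit of the polymerase that copies past lesions, fell by 1.97 ± 0.12 (SE) with ifosfamide, and its change with cyclophosphamide was -0.38 ± 0.11. Of 29 genes for direct reversal of alkylation and for base, nucleotide and mismatch repair, Mpg, Apex1 and Pcna rose with cyclophosphamide, and Alkbh3, Fen1, Pcna and Ercc8 rose while Parp1 and Xpc fell with ifosfamide. Pcna, the sliding clamp, rose by 0.95 ± 0.11 and 1.75 ± 0.11. Among 24 proliferation genes Pcna was called with cyclophosphamide, and with ifosfamide Mki67, Ccnb1, Ccna2, Aurka, Bub1 and Pcna rose while Ccnd1, the cyclin of early G1, fell by 2.69 ± 0.30 (SE).

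NRF2 targets rose with cyclophosphamide in 13 of 26 cases, with 1 lower and a median change of 0.53. With ifosfamide 7 rose, 2 fell and the median was 0.28, and 4 rose when 1 of the 3 control lots was used alone. Over all genes 3.41% and 9.59% rose, and 6.08% and 15.4% fell. The 7 genes called with both were Nqo1, Hmox1, Gclm, Srxn1, Slc7a11, Akr1b8 and Trex1. Slc7a11, the cystine transporter that feeds glutathione synthesis, read 9.07, 9.09 and 9.18 at 0.67 d and 9.23, 9.24 and 9.39 at 1 d with cyclophosphamide, above all controls (6.12 to 7.79, median 6.99). With ifosfamide it read 9.05, 9.84 and 10.59, then 9.37, 9.45 and 10.16, above all controls (5.23 to 8.41, median 6.85). Its change was 2.13 ± 0.20 (SE, adjusted p = 1.49e-06) and 2.83 ± 0.33 (adjusted p = 1.21e-09).

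Hmox1, the heme-degrading enzyme, read 13.21, 13.28 and 13.29, then 13.13, 13.14 and 13.22 with cyclophosphamide against 11.68 to 12.36 in controls (median 12.04). It read 13.13, 13.31 and 13.45, then 12.97, 12.999 and 13.12 with ifosfamide against 10.44 to 12.72 (median 11.84). No treated array overlapped the controls in either drug, and the folds were 2.25 and 2.53. Gsta3, a glutathione transferase of the alpha class, was called with cyclophosphamide only. It read 7.93, 8.13 and 8.28, then 8.55, 8.97 and 9.29 with cyclophosphamide, above all controls (6.05 to 6.90, median 6.58), a 3.97-fold change. With ifosfamide it read 5.63, 6.59 and 7.58, then 5.79, 7.00 and 7.04, inside controls that ran from 4.82 to 7.84 (median 6.34), with a change of 0.27 ± 0.32 (SE, adjusted p = 0.444).

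The promoters of the called NRF2 targets that hold an antioxidant response element, the site that NRF2 binds with small MAF proteins, show where such letters stand. Windows of 250 bases before and 50 bases after each transcription start in RefSeq's GRCr8 rat assembly were searched on both strands for TGACNNNGC. A match stood in 8 of the 26 windows of this list (30.8%, 23 genes matched by symbol), against 14.1% of the 13244 windows of tested genes and 12.1% of all 33469 windows. The 5 called genes with a match before the start are printed below over the 250 bases that precede it, with the match in capitals. Gclm (chr2:213031885-213032134, plus strand) encodes the regulatory subunit of glutathione synthesis, Gpx2 (chr6:101230034-101230283, minus strand) a glutathione peroxidase, and Txnrd1 (chr7:22755905-22756154, minus strand) thioredoxin reductase. Gsta3 stands at chr9:31154739-31154988 (plus strand) and Ugdh, which makes UDP-glucuronate, at chr14:43202268-43202517 (plus strand).
Gclm: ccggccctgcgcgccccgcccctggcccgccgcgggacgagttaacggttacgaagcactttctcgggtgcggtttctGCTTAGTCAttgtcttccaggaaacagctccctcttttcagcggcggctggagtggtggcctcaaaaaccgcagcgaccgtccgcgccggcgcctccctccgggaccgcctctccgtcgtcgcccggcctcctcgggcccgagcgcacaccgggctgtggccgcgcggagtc
Gpx2: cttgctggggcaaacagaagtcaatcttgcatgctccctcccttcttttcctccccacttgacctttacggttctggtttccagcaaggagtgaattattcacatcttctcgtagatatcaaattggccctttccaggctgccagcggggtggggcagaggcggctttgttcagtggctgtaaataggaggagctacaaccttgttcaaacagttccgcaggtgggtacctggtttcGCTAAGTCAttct
Txnrd1: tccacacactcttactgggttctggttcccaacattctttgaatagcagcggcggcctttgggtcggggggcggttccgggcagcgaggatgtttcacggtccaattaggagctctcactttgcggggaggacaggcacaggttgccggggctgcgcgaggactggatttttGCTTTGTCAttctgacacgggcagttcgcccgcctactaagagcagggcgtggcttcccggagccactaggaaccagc
Gsta3: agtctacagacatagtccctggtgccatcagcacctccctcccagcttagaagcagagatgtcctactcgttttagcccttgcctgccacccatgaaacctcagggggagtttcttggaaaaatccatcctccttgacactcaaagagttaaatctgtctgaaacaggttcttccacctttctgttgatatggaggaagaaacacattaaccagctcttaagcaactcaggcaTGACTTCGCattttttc
Ugdh: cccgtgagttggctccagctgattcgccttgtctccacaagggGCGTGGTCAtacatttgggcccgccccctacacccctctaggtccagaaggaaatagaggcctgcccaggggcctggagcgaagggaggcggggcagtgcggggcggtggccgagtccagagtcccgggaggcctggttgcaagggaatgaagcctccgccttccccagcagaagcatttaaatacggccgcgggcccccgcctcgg

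The 5 genes were printed because they were called, so their changes are no test of the element. Matches also stood in the windows of Gstp1, Me1 and Ephx1, which were called with neither drug. With cyclophosphamide Gclm rose by 0.80, Gpx2 by 0.88, Txnrd1 by 0.66, Gsta3 by 1.99 and Ugdh by 0.61. With ifosfamide Gclm rose by 0.59, and the other changes were 0.25, 0.24, 0.27 and 0.07, none called. Among all called genes the element stood in 15.8% of the windows of genes higher and 15.1% of those lower with cyclophosphamide, and in 15.99% and 13.9% with ifosfamide. These shares were not tested against each other. The match is a run of letters and was not shown to be bound here.

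Enzymes that meet the reactive aldehydes were called in both directions. Of 24 genes for oxidation and reduction of aldehydes, Akr1b1, Akr1b8, Akr7a3 and Cbr1, all reductases, rose with cyclophosphamide and 0 fell by limma (4 at an unadjusted p under 0.05, 0 without variance moderation). With ifosfamide Akr1b1 (1.99 ± 0.23) and Akr1b8 (1.75 ± 0.51) rose, and 8 genes fell, namely Aldh1a1, Aldh3a2, Aldh3b1, Aldh4a1, Aldh5a1, Aldh6a1, Aldh7a1 and Adh4. Aldh1a1, an aldehyde dehydrogenase that inactivates oxazaphosphorines, fell by 1.80 ± 0.41 (SE, adjusted p = 0.000171) with ifosfamide, where its arrays overlapped the controls, and its change with cyclophosphamide was 0.48 ± 0.18 (adjusted p = 0.0553). The list's median was 0.07 and -0.44. Over all genes 3.41% and 9.59% rose, and 6.08% and 15.4% fell. Of 33 genes for glutathione synthesis and transfer, 4 rose and 2 fell with cyclophosphamide, and 4 rose and 7 fell with ifosfamide. The ifosfamide counts and the cyclophosphamide falls were near the shares over all genes. Gclc, the catalytic subunit of glutathione synthesis, fell by 0.65 with ifosfamide, and Abcc4, a pump for conjugates that is also on the NRF2 list, fell with both drugs, by 0.61 and 1.52.

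Of 19 tested P450s that activate these prodrugs and their partners, 2 fell with cyclophosphamide and 4 with ifosfamide (6.08% and 15.4% of all genes fell), at list medians of -0.09 and -0.20. By limma 0 were called higher with either drug, where 3.41% and 9.59% of all genes rose. At an unadjusted p under 0.05 in the limma fits, 1 was higher with cyclophosphamide and 2 with ifosfamide, and the test without variance moderation also called 0 higher. Cyp2b3 fell by 1.48 ± 0.21 and 1.70 ± 0.19, and Cyp2c12, a female-predominant form, by 1.87 ± 0.38 and 1.88 ± 0.50. Cyp2c11 and Cyp2c22 fell with ifosfamide by 0.79 and 0.88. Cyp3a23-3a1 stood at 0.46 ± 0.10 with cyclophosphamide and -0.03 ± 0.24 with ifosfamide, and Por, the reductase that supplies electrons to P450s, at -0.23 and -0.21. Cyp2b1 and Cyp2b2, which share a probe set, were not analysed here.

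Targets of the drug-sensing receptors CAR and PXR gave 3 higher genes of 26 with cyclophosphamide, Ugt2b1, Alas1 and Tsku. With ifosfamide 4 were higher and 2 lower. Over all genes 3.41% and 9.59% rose, and 15.4% fell with ifosfamide. Ugt2b1, a glucuronosyltransferase, rose most of all genes with cyclophosphamide, 8.30-fold. Its arrays read 9.07, 10.29 and 10.31, then 9.68, 10.35 and 11.69, above all controls (5.65 to 8.01, median 7.41). With ifosfamide they read 7.88, 8.73 and 9.58, then 8.15, 8.86 and 9.11, and overlapped controls that ran from 5.79 to 8.94 (median 7.90), a change of 0.97 ± 0.33 (SE, adjusted p = 0.00873). Alas1, the rate-limiting enzyme of heme synthesis, rose by 0.89 ± 0.08 and 0.67 ± 0.11. Abcb1a, a drug efflux pump, rose by 1.42 ± 0.18 with ifosfamide and stood at 0.30 ± 0.16 with cyclophosphamide. Of 7 AhR targets, Nqo1 was called with cyclophosphamide, and with ifosfamide Nqo1 and Tiparp rose while Cyp1a1 fell by 2.45 ± 0.40 and Cyp1a2 also fell.

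ATF4 and CHOP targets formed the list with the largest share of called members with ifosfamide, 20 of 28 higher and 3 lower at a median of 0.92. With cyclophosphamide 6 rose and 2 fell at a median of 0.08. Over all genes 9.59% rose and 15.4% fell with ifosfamide, and 3.41% and 6.08% with cyclophosphamide, so the falls were near or below those shares. Ddit3, which encodes CHOP, read 11.75, 11.79 and 11.92 at 0.67 d and 11.55, 11.86 and 11.88 at 1 d with ifosfamide, above all controls (7.61 to 10.37, median 8.76), a change of 2.94 ± 0.22 (SE, adjusted p = 1.23e-14). With cyclophosphamide it read 9.46, 9.65 and 9.75, then 8.47, 9.43 and 9.78, and overlapped controls of 8.06 to 9.38 (median 8.57). The change there was 0.80 ± 0.20 (SE, adjusted p = 0.0047). Members called with ifosfamide included Chac1, which degrades glutathione (2.31), Ppp1r15a, which reverses the block on translation (2.30), Atf3 (2.28) and Mthfd2, a mitochondrial folate enzyme (2.16). With cyclophosphamide Chac1 stood at -0.51 and Mthfd2 at 0.08, neither called, while Ppp1r15a and Atf3 rose by 0.62 and 0.85. Cth, which makes cysteine, fell with cyclophosphamide by 0.93, and Gpt2 fell with both drugs.

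The ATF4 element, searched as TGATGNAAT on both strands, stood in 0.566% of the windows of tested genes and in 2 of the 28 windows of this list (7.14%). They belonged to Fgf21 (chr1:105221377-105221626, minus strand), a fasting hormone, and Nupr1 (chr1:190645902-190646151, minus strand), a stress-induced nuclear protein, printed from 250 bases before the start in the GRCr8 assembly with the match in capitals.
Fgf21: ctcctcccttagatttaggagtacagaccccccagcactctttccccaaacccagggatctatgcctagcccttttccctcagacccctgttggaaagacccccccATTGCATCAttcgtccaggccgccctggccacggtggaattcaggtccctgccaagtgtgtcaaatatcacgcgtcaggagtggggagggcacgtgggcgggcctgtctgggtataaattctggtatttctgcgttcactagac
Nupr1: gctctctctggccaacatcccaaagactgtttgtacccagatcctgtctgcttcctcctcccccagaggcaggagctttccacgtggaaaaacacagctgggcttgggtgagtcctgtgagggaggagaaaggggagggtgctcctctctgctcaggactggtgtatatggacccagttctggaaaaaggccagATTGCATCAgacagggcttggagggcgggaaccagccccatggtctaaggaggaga

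Fgf21 rose by 1.20 ± 0.21 and Nupr1 by 1.61 ± 0.16 with ifosfamide, and with cyclophosphamide they stood at -0.42 ± 0.21 and 0.49 ± 0.15, not called. The core of the p53 site, searched as CATG, 6 bases and CATG, was in 0.264% of the windows of tested genes and in 0 of the 27 windows of the p53 list.

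Heat shock and ER genes rose in part. Of 20 HSF1 targets, 5 rose with cyclophosphamide and 8 rose and 1 fell with ifosfamide, where 3.41% and 9.59% of all genes rose. The list medians were 0.29 and 0.49. All 5 were also among the 8: Hsph1, Dnajb1, Hspb8, Zfand2a and Chordc1. Hspa1a, the inducible HSP70, read 11.08, 11.88 and 12.04, then 11.05, 11.50 and 11.85 with ifosfamide, above all controls (8.13 to 10.00, median 8.76), a 6.25-fold change. With cyclophosphamide it read 8.65, 8.96 and 9.20, then 8.35, 8.60 and 9.21, within controls of 8.42 to 9.93 apart from 1 lower array, and the change was -0.18 ± 0.23 (SE, adjusted p = 0.613). Of 19 ER chaperone and quality control genes, Dnajb9 rose with both drugs, by 0.61 and 1.67, and Sdf2l1, Manf, Hyou1 and Edem1 rose with ifosfamide while Xbp1 fell.

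**Figure D2:**
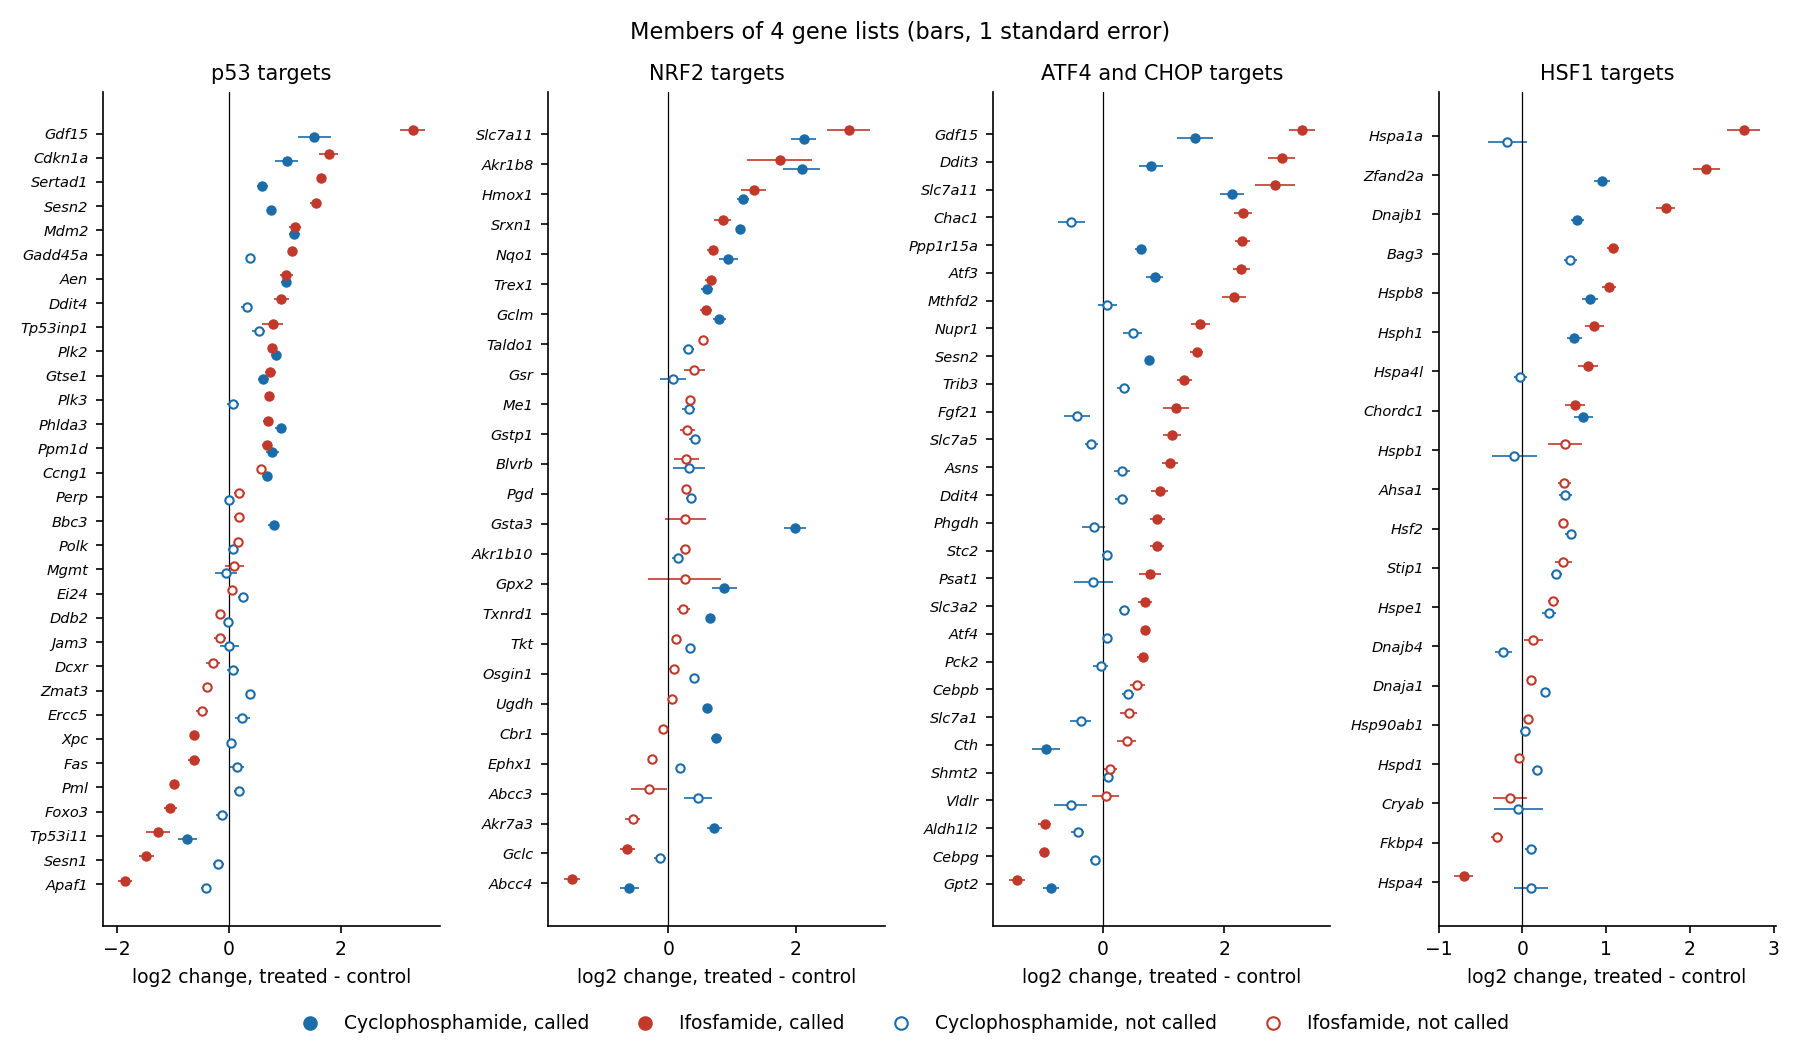
Log2 change (treated minus control, bars 1 SE) of each tested member of the p53, NRF2, ATF4 and CHOP, and HSF1 lists with cyclophosphamide (blue) and with ifosfamide (red), 1 point per gene, filled where called. The ATF4 and CHOP list has a median of 0.08 with cyclophosphamide and 0.92 with ifosfamide, and the p53 list has members called in both directions with ifosfamide.

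Of 30 complement and coagulation genes, which hepatocytes secrete, 8 fell with cyclophosphamide and 12 with ifosfamide, where 6.08% and 15.4% of all genes fell. By limma 0 rose with either drug, against 0 and 1 at an unadjusted p under 0.05 and 0 without variance moderation. The 8 were also among the 12, with list medians of -0.42 and -0.53. F5, coagulation factor V, fell by 1.56 ± 0.17 and 3.19 ± 0.18, C5 by 1.48 ± 0.19 and 2.11 ± 0.19, and Mbl2, a mannose-binding lectin, by 0.76 ± 0.15 and 3.60 ± 0.18. Of the 19 hepatocyte markers, Apob and Cps1 fell with both drugs and Hnf4a with ifosfamide, and the other markers were not called, at list medians of -0.09 and -0.10. Apob, the structural protein of VLDL, read 11.36, 11.37 and 11.67, then 10.996, 11.08 and 11.62 with cyclophosphamide against 12.25 to 12.97 in controls (median 12.42). With ifosfamide it read 8.55, 8.76 and 9.09, then 7.75, 8.10 and 8.41, against 11.53 to 12.57 (median 12.27). All treated arrays lay below all controls, a pattern that 6.46% and 11.2% of all genes had, and Apob was 2.16-fold and 13.8-fold lower. Hnf4a, the nuclear receptor that maintains hepatocyte identity, fell by 1.13 ± 0.07 with ifosfamide and stood at -0.11 ± 0.07 with cyclophosphamide. In contrast, 0 of 34 nuclear subunits of complex I, the first enzyme of the respiratory chain, were called with either drug by limma or without variance moderation, at medians of 0.09 and 0.15. At an unadjusted p under 0.05, 4 were higher with cyclophosphamide, and 22 were higher and 4 lower with ifosfamide.

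Genes that fell with either drug tended to be long. The pattern was noticed after the values were seen and is given as a description. Of the 10 genes that fell most with cyclophosphamide, 7 span more than 100 kb of the genome, as did 4 of the 10 that fell most with ifosfamide and 7 of the 8 that fell most in both drugs together. The 7 that fell in both were Magi1, a scaffold of cell junctions (606 kb), Vps13b, a lipid transfer protein (577 kb), Ptprd, a receptor phosphatase (2322 kb), Cdk14 (594 kb), Gna14, Reps2 and Plce1. Spans were those of the RefSeq gene in GRCr8 and cover 14206 of the 14218 genes. The median span was 122 kb among genes that fell with cyclophosphamide, 61.2 kb among those that fell with ifosfamide, and 12.0 and 13.9 kb among those that rose, against 22.3 kb over all genes. Genes over 100 kb made up 57.5% and 32.9% of those that fell, 1.65% and 1.76% of those that rose, and 13.7% of all.

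Magi1 read 5.12, 5.15 and 5.77 at 0.67 d and 4.42, 4.51 and 5.09 at 1 d with cyclophosphamide, against 7.78 to 8.17 (median 7.97) in controls. With ifosfamide it read 5.23, 5.34 and 5.40, then 4.75, 4.85 and 4.88, against 7.31 to 8.25 (median 7.79). The drop of 7.80-fold and 6.67-fold left every treated array well below every control. Vps13b read 4.22, 4.92 and 5.06, then 3.32, 3.49 and 3.85 with cyclophosphamide, against controls of 6.94 to 7.29 (median 7.02). With ifosfamide it read 4.76, 4.90 and 4.98, then 3.69, 4.14 and 4.38, against 6.64 to 7.40 (median 7.06). Vps13b was thus 7.63-fold and 6.07-fold lower, with no overlap.

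The share of genes that fell differed with span, and above 200 kb it depended on whether dim genes were counted. Over all genes the shares that fell with cyclophosphamide were 1.87% under 20 kb, 2.90% from 20 to 50 kb, 7.06% from 50 to 100 kb, 21.4% from 100 to 200 kb, 34.2% from 200 to 500 kb and 23.5% of the 162 genes above 500 kb. With ifosfamide they were 7.74%, 12.7%, 25.2%, 40.97%, 33.99% and 19.8%, so that the share was highest from 100 to 200 kb and lower beyond. Leaving out the 1 in 3 genes of lowest mean log2 value, 2.63% of genes under 20 kb fell with cyclophosphamide, then 3.70% from 20 to 50 kb, 9.29% from 50 to 100 kb, 30.1% from 100 to 200 kb, 66.3% from 200 to 500 kb and 70.2% of the 47 genes above 500 kb. The share that rose went the other way, from 7.27% under 20 kb to 0.638% from 100 to 200 kb and to 0 of the 297 genes from 200 to 500 kb. With ifosfamide the shares that fell were 11.1%, 16.5%, 33.96%, 58.5%, 67.003% and 63.8%. The shares that rose with ifosfamide were 18.4% under 20 kb and 1.68% from 200 to 500 kb. The rise from each class to the next up to 200 kb was seen with and without the dim genes.

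**Figure D3:**
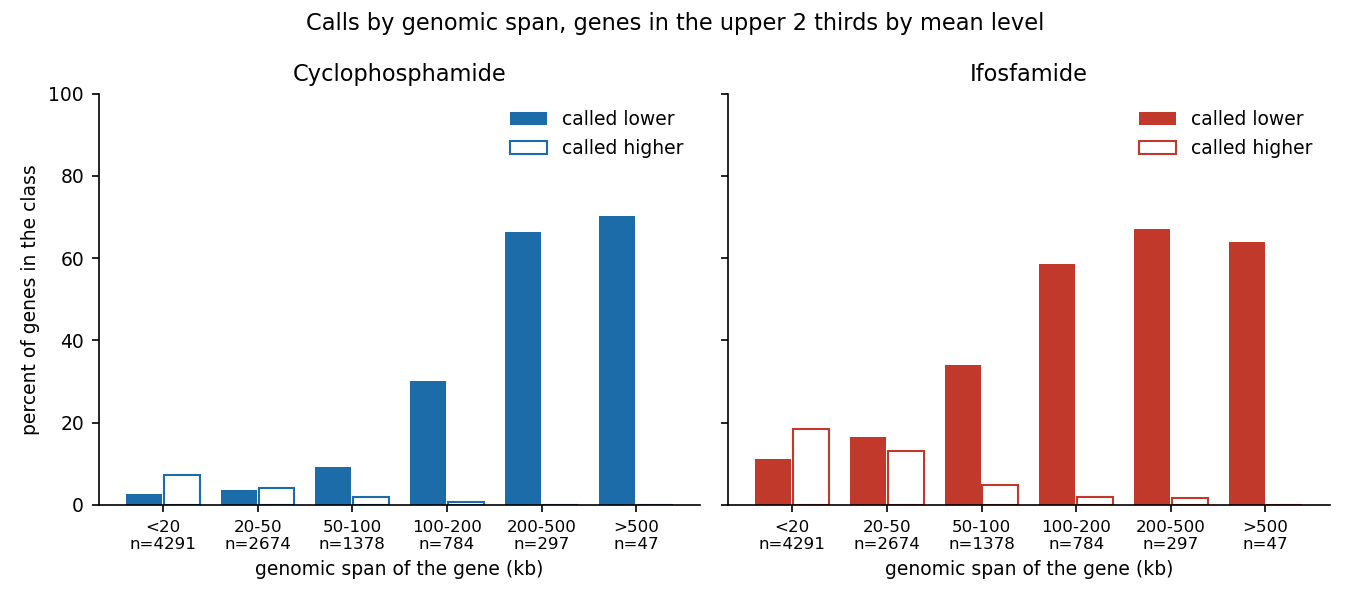
Percent of genes called lower and called higher by class of genomic span in kb, for cyclophosphamide and ifosfamide, after the 1 in 3 genes of lowest mean log2 value were left out. From under 20 kb to over 500 kb the share called lower goes from 2.63% to 70.2% with cyclophosphamide and from 11.1% to 63.8% with ifosfamide, whereas over all genes the class above 500 kb has 23.5% and 19.8%.

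The same contrast could be read on each array. The dimmest 1 in 3 genes were again left out. The median change of the remaining 1128 genes over 100 kb minus that of the remaining 4291 genes under 20 kb was -0.95 to -0.50 on the 6 cyclophosphamide arrays, against -0.11 to 0.26 on their 8 controls. It was -0.96 to -0.69 on the ifosfamide arrays at 0.67 d and -1.33 to -1.14 at 1 d, against -0.10 to 0.09 on the 32 controls. All treated arrays lay below all controls at both times. In the fits the median change of these long and short genes was -0.48 and 0.14 with cyclophosphamide and -0.83 and 0.19 with ifosfamide. With the dim genes kept, it was -0.18 and 0.07 over 1945 long and 6628 short genes with cyclophosphamide, and -0.17 and 0.21 with ifosfamide. Exceptions among long genes existed. Slc7a11, which spans 136 kb, rose with both drugs, and Abcb1a, which spans 176 kb, rose with ifosfamide. In all, 8 of 1945 genes over 100 kb rose with cyclophosphamide and 497 fell, and with ifosfamide 24 rose and 720 fell. Under the scaling by the median of the tested genes the ifosfamide count of long genes that fell was 570.

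**Figure D4:**
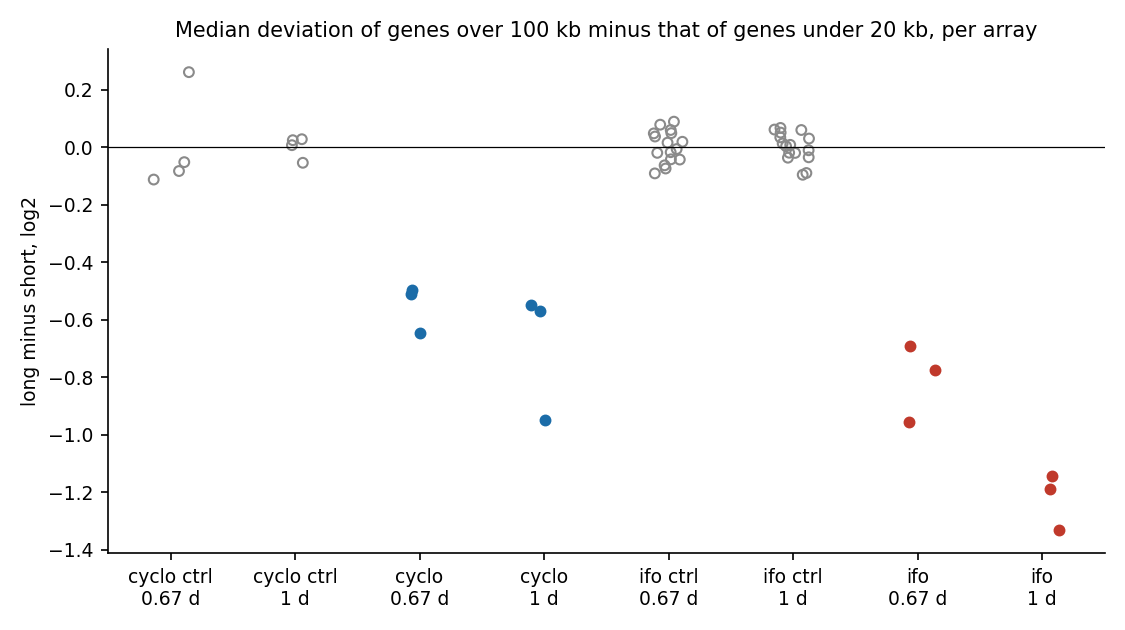
Median log2 difference from the other controls of the same drug and time, for genes over 100 kb minus genes under 20 kb, on each treated (filled) and control (open) array, after the 1 in 3 genes of lowest mean log2 value were left out. Treated arrays lie between -1.33 and -0.50 and all controls between -0.11 and 0.26.

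Members within the gene lists had different spans as well. The 14 p53 targets that rose with ifosfamide had a median span of 7.59 kb and the 7 that fell 34.6 kb. In the ATF4 and CHOP list those that rose had a median of 9.30 kb and those that fell 34.5 kb. Rev3l spans 158 kb and Abcc4 235 kb. In contrast Apob, with 39.6 kb, and Mbl2, with 35.7 kb, were among the strongest falls with ifosfamide, and Cyp1a1, which also fell, spans 6.08 kb. Cyp26b1, a retinoic acid hydroxylase, fell most of all genes with cyclophosphamide, by 3.68 ± 0.26 (SE), and spans 16.8 kb.

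Exposure time mattered in the ifosfamide arrays. At 0.67 d 1167 genes were higher and 1737 lower than in controls (8.21% and 12.2% of those tested), and at 1 d 1693 and 2433 (11.9% and 17.1%). For 545 genes (3.83%) the change itself differed between the times (limma interaction, adjusted p of 0.05 or less). Of these, 483 were lower at 1 d and 62 higher, and 407 were genes called lower that went lower still. Of the 483, 264 span more than 100 kb. After subtraction of the median of the tested genes the split was 279 lower and 314 higher. At 1 d the median over the tested genes was 6.70 to 6.75 on the ifosfamide arrays and 6.97 or more on their controls. The count also rested on single arrays: it was 175 without the ifosfamide array numbered 1 at 0.67 d, 217 without number 2 at 1 d and 937 without number 3 at 0.67 d.

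The 5 largest of these falls were in Ccn2, a matricellular growth regulator (-2.82 at 0.67 d and -5.05 at 1 d), Ext1, a heparan sulfate polymerase (-2.03 and -3.75), Fchsd2, which acts in endocytosis (-1.94 and -3.56), Acss3, a mitochondrial acyl-CoA synthetase (-2.81 and -4.38), and Pakap (-3.42 and -4.98). Ccn2 spans 3.12 kb and the other 4 from 209 to 467 kb. The 5 that rose further were Cst6, a cystatin (0.78 and 1.71), Fam167a (1.81 and 2.64), Pygm, muscle glycogen phosphorylase (0.59 and 1.42), LOC100912188 (0.30 and 1.07) and Slc4a11, a membrane transporter (1.15 and 1.91), and these span 1.71 to 47.98 kb. With cyclophosphamide the changes of Ext1 and Fchsd2 were -1.76 and -1.07 at 0.67 d and -2.40 and -1.42 at 1 d, where the time difference did not pass the test.

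With cyclophosphamide 218 genes were higher and 403 lower at 0.67 d (1.53% and 2.83%), and 632 and 875 at 1 d (4.45% and 6.15%). The change differed between the times for 1 gene (0.00703%). This was Dpyd, dihydropyrimidine dehydrogenase, which breaks down uracil and spans 866 kb. It stood at -1.38 ± 0.11 (SE) at 0.67 d and -2.54 ± 0.11 at 1 d, and the difference of -1.17 ± 0.15 had an adjusted p of 0.0305 by limma. With ifosfamide Dpyd stood at -1.81 and -2.37, a difference of -0.56 ± 0.27 (adjusted p = 0.289 by limma). The interaction test had 4 controls at each time for cyclophosphamide and 16 for ifosfamide, so its counts cannot be compared between the drugs.

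**Figure D5:**
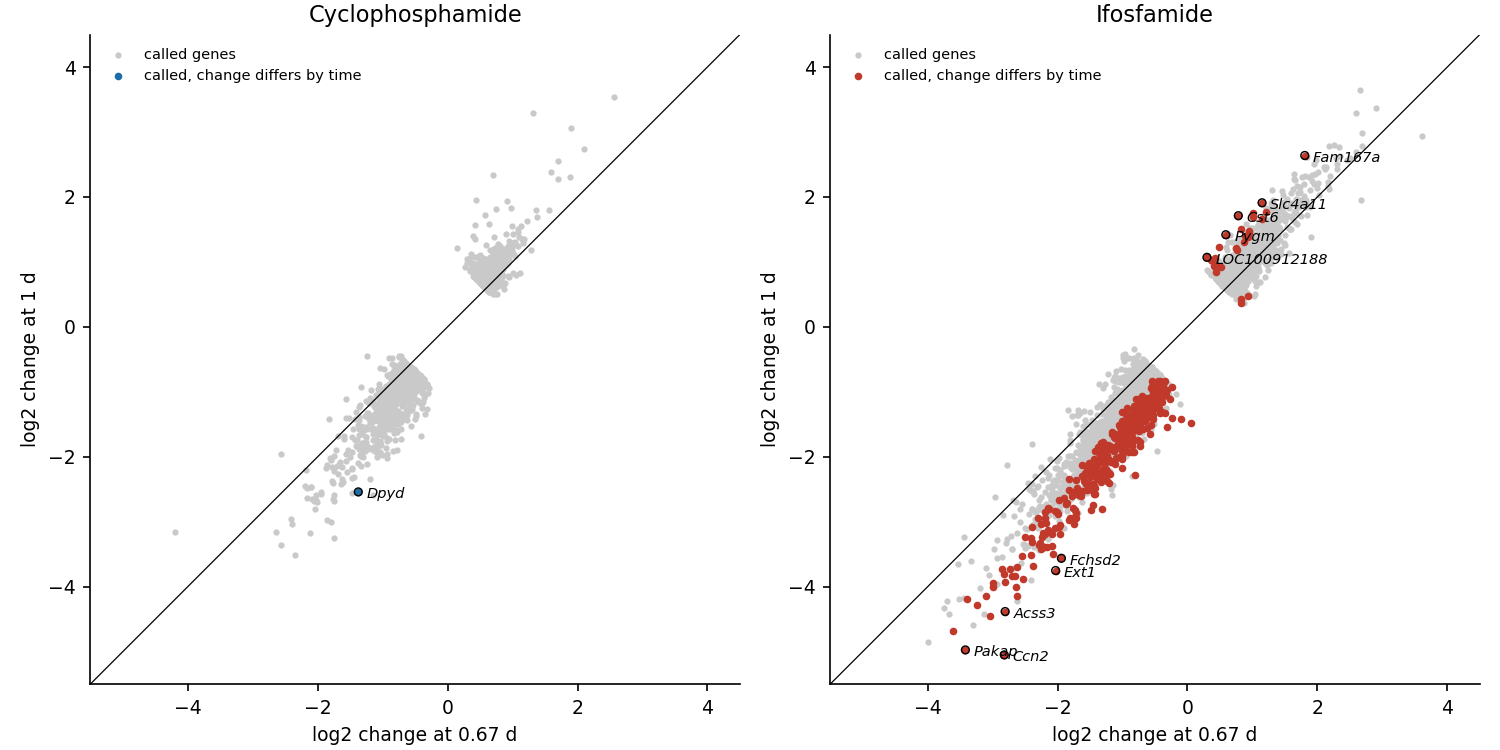
Log2 change at 1 d against log2 change at 0.67 d for each called gene, by drug, with coloured points where the change also differed between the times and the line of equal change. With ifosfamide 407 genes called lower were lower still at 1 d, and with cyclophosphamide Dpyd was the coloured gene.

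Some markers of liver endothelial and stellate cells fell with cyclophosphamide, where 6.08% of all genes fell. Of 11 liver endothelial markers 4 fell (Lyve1, Kdr, Fcgr2b and Tek), and their mean log2 value over the list was 4.46 to 4.78 on treated arrays against 5.15 to 5.56 on controls, with no overlap. Of 13 stellate cell markers 4 fell (Reln, Vim, Col3a1 and Col1a2), with means of 5.13 to 5.39 against 5.51 to 6.23. The median over all probe sets was 5.51 to 5.63 on the 52 arrays used, so most of these list means lay near or below it. Lyve1, an endothelial hyaluronan receptor, fell by 2.91 ± 0.17. Fabp4, a fatty acid binding protein found in endothelium, fell by 2.72 ± 0.15. Fewer such cells and less RNA per cell cannot be told apart in these bulk cultures. With ifosfamide 2 endothelial markers (Lyve1 and Kdr) and 1 stellate marker (Reln) fell, near or below the 15.4% of all genes that fell. The endothelial mean of 4.80 to 5.26 overlapped controls that ran from 4.75 to 6.27. Of 13 Kupffer cell markers 0 were called with cyclophosphamide by limma or without variance moderation (1 higher and 1 lower at an unadjusted p under 0.05), and Cd68 rose by 0.93 with ifosfamide. Of 7 cholangiocyte markers 0 were called with either drug by both tests, with 0 and 4 at an unadjusted p under 0.05. The part of these cells in the other results was not tested.

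Chlorambucil, a nitrogen mustard that needs no enzyme to become active, was measured in the same series at 1540 uM on 6 arrays. Its 10 controls are 1 of the 3 lots used for ifosfamide, so its values are only set beside the others. It gave 115 higher genes (0.809%) and 23 lower genes (0.162%). By limma and without variance moderation 0 of the p53, NRF2 and HSF1 targets were called with it, and at an unadjusted p under 0.05 5, 1 and 2 members were higher and 1, 5 and 2 lower. In contrast, 26 of 31 targets of the fatty acid receptor PPARα rose, at a list median of 1.72. On the same PPARα list 1 rose and 3 fell with cyclophosphamide (median -0.03), and 5 rose and 12 fell with ifosfamide (median -0.27). Over all genes 3.41% rose and 6.08% fell with cyclophosphamide, near its counts here, and 9.59% and 15.4% with ifosfamide. Mdm2 stood at 0.15 ± 0.12 with chlorambucil, Cdkn1a at 0.38 ± 0.12 and Slc7a11 at -0.31 ± 0.36. Vps13b fell by 0.94 ± 0.18 (SE, adjusted p = 0.00737), and 1.60% of the 1128 genes over 100 kb that were not among the dimmest fell.

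Across the 116 compounds of the series that were given at a single dose, the median number of called genes was 861.5. By that number ifosfamide had rank 6 and cyclophosphamide rank 47. When compounds were instead ordered by the change of long genes minus that of short genes, again without the dimmest 1 in 3, ifosfamide had rank 2 at -1.02, cyclophosphamide rank 6 at -0.62 and chlorambucil rank 35 at -0.11. The compounds at the head of that order were cisplatin (-1.33), ifosfamide, lomustine (-0.98), carmustine (-0.78) and monocrotaline (-0.69), of which cisplatin links DNA strands through platinum, lomustine and carmustine are chloroethyl nitrosoureas, and monocrotaline is a pyrrolizidine alkaloid that P450 enzymes activate. The number of controls ran from 2 to 32, with 32 for ifosfamide and 8 for cyclophosphamide, and the number of called genes depends on it. Doses also differ among compounds and some share controls, so both orders are descriptions.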

How the data were processed

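The 12 treated arrays and their vehicle controls were compared on the log2 values that the authors deposited for 31099 Affymetrix probe sets. The submitters' processing notes name RMA, which corrects background, normalizes by quantiles and summarises probes, so the values of an array depend on the arrays processed with it. Its version and the scanner settings are not given in the sources used here. The number of arrays limits the precision. Probe sets with 1 gene symbol in the platform annotation (20832, against 436 with several and 9831 with none, which were left out) were matched to RefSeq, and each of 14218 genes was read from the brightest of its probe sets, by its mean over the 939 arrays. No columns without a sample were found (0).

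Each drug was compared with its own controls in limma 3.58.1 (R 4.3.3) with exposure time as a covariate, and p-values were adjusted by Benjamini-Hochberg over all 14218 genes. Time differences were tested by the interaction. In simulated data with independent noise on each array, the treatment fits recovered the mean size of the changes put in. Those data did not hold the shared deviations between arrays described below. Time differences were simulated as well, and the number called where none was put in was held to a limit. Recovery of those put in was recorded but held to no limit. Genes were named by rule: the 10 largest changes in each direction per drug, the 8 largest in both, the 5 largest time differences, and called members of the gene lists, with the activating P450s, Cdkn1a, Mdm2, Ccng1, Gdf15, Nqo1, Hmox1 and Ddit3 in any case. The members and the lists were chosen with earlier results of these data known. Titles of control arrays hold a code that reads as a date and differs between some controls of a lot, but the labels do not explain it. They do not say that treated arrays came from separate cultures or animals. The p-values thus measure the spread between these arrays, which may be technical in part. The ifosfamide arrays all carry the number 1 and were numbered by order only. For cyclophosphamide and its controls, arrays with the same number and different groups deviated together (r of 0.25 to 0.65 in 19 pairs, median 0.43, against -0.45 to 0.16 in 54 pairs with different numbers), and the labels give same-numbered arrays the same extraction day, so the numbers pair the arrays.

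Alternatives were a test without variance moderation in place of the methods' t test, other bounds, single times, other scalings, other control lots, the probe sets of a gene combined by their median, the dimmest genes left out, hybridization or extraction day, the replicate block, and each array left out. Spans, the recount of lists and the scaling by the median of the tested genes were added after the values were seen. Genomic spans and promoters came from RefSeq GRCr8. Python 3.11.15, pandas 2.3.3 and numpy 2.4.6 were used.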

Additional observations from a re-analysis of the deposited data

Results flagged for a closer look

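Among the 12 genes whose values are given per array, each group of 4 to 8 control arrays was checked for an array that stood apart from the rest by Dixon's ratio. Of 72 checks 3 stood apart, and chance alone gives about 1 in 20. All were in the controls of cyclophosphamide. Cdkn1a read 9.69 on 1 control array at 1 d, the lowest of 4. Hspa1a read 9.57 on another at 1 d, the highest of 4. Apob read 12.97 on 1 control array at 0.67 d, the highest of 4.

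The change with ifosfamide differed between 0.67 d and 1 d for 545 genes by the interaction test, and with cyclophosphamide for 1. The test had 16 controls at each time for ifosfamide and 4 for cyclophosphamide. The largest differences at 1 d minus 0.67 d with ifosfamide were 0.93 for Cst6, 0.83 for Fam167a, 0.83 for Pygm, 0.77 for LOC100912188 and 0.76 for Slc4a11 among those higher at 1 d. Among those lower at 1 d they were -2.23 for Ccn2, -1.72 for Ext1, -1.62 for Fchsd2, -1.58 for Acss3 and -1.56 for Pakap. With cyclophosphamide the difference for Dpyd was -1.17.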

How the results depend on the processing

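With a 2-fold bound, called genes were 374 for cyclophosphamide, 1651 for ifosfamide and 322 for both, and genes over 100 kb that fell with cyclophosphamide were 204. With the 0.67 d arrays fitted alone they were 446 for cyclophosphamide, 380 for both and 241 for long genes. The 1 time difference with cyclophosphamide was 0 without variance moderation and under both median scalings, and 2 with the extraction day or the replicate block. With the replicate block 1335 genes were called for cyclophosphamide, 3653 for ifosfamide and 1109 for both. The treated ifosfamide arrays all carry the number 1, so this block pairs none of them with a control of its own and cannot check pairing there. Counts of called members were redone for the NRF2, p53, ATF4 and CHOP, HSF1, and complement and coagulation lists. Apart from fits that left out 1 array, 18 of these counts moved by over 1.5 times or to 0, and 142 did not. Leaving out each array in turn gave 1132 to 1442 for cyclophosphamide, 3439 to 3725 for ifosfamide, 941 to 1206 for both, 427 to 508 and 692 to 744 long genes that fell, 0 to 3 time differences with cyclophosphamide and 175 to 937 with ifosfamide. Against each control lot alone ifosfamide gave 3349 to 3660 called genes and 702 to 725 long genes that fell, and the NRF2 targets that rose were 4 against 1 lot. The 2-fold bound left 5 NRF2, 4 p53, 2 ATF4 and CHOP and 0 HSF1 targets higher with cyclophosphamide, and 3, 7, 13 and 5 with ifosfamide. Foxo3 with ifosfamide turned to 0.25 with the median of its probe sets. Subtracting the median of the tested genes gave 3502 higher and 1538 lower genes for ifosfamide, and 523 and 623 for both. The cause was not tested. A single dose per drug, different doses and 3 arrays per time limit what these comparisons can show, and dim genes have compressed changes on arrays.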

Other observations

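Of 20 genes of cholesterol synthesis, 9 rose and 2 fell with ifosfamide at a median of 0.47, and 1 fell with cyclophosphamide at a median of -0.01. Over all genes 9.59% rose and 15.4% fell with ifosfamide and 6.08% fell with cyclophosphamide, so the falls were near or below those shares. Mvd, which makes the isoprenoid unit, rose by 1.39 ± 0.08 (SE) with ifosfamide and stood at 0.49 ± 0.09 with cyclophosphamide, where all treated arrays also lay above all controls. Dhcr7, which catalyses the last step to cholesterol, fell by 1.12 ± 0.12 with ifosfamide and Nsdhl fell with both drugs.

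Among genes of fatty acid use, Pdk4, the kinase that shuts off pyruvate dehydrogenase, rose by 3.15 ± 0.30 with ifosfamide, while Cpt1a, which admits fatty acids to mitochondria, fell by 1.88 ± 0.12 and Angptl4, an inhibitor of lipoprotein lipase, by 2.63 ± 0.17. With cyclophosphamide Cpt1a fell by 0.71 ± 0.09, and Pdk4 and Angptl4 stood at 0.58 ± 0.22 and 0.16 ± 0.17, not called. Vnn1, a pantetheinase, fell with both, by 1.16 ± 0.24 and 2.79 ± 0.21.

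Genes outside the lists that rose with both drugs were led by Cym, chymosin (2.42 and 2.00), Spetex2l2 (2.49 and 1.77), Trim59, a ubiquitin ligase (1.68 and 2.19), Sdcbp2, syntenin 2 (1.58 and 2.48), and Fosl1, a subunit of AP-1 (1.53 and 2.55). Ifosfamide also raised the transcription factors Klf4 (2.54 ± 0.18) and Maff (2.53 ± 0.26), which rose by 1.30 and 1.07 with cyclophosphamide. Nrep, which fell most with ifosfamide, was lower by 4.42 ± 0.26 and fell by 0.94 ± 0.20 with cyclophosphamide. The transcription factors Onecut1 and Zfhx3, which span 27.8 and 1007 kb, fell by 3.81 and 3.86 with ifosfamide and by 0.80 and 1.13 with cyclophosphamide.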
